A study of Mus musculus with 5 samples.

Results

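Accessible chromatin was examined at 8 genes of the fibroblast extracellular matrix: Col1a1, Col1a2, Col3a1, Col5a2, Col5a1, Fn1, Sparc and Lox. The members were all called DNase I peaks that overlapped 7 fixed windows around these genes on the mouse build mm9, with Col3a1 and Col5a2 sharing a window. The windows were chr11:94750000-94865000 for Col1a1, chr6:4400000-4540000 for Col1a2, chr1:45320000-45600000 for Col3a1 with Col5a2, chr2:27690000-27945000 for Col5a1, chr1:71580000-71750000 for Fn1, chr11:55160000-55285000 for Sparc and chr18:52625000-52740000 for Lox. They span 1200 kb together and held 212 of the 127726 peaks in the 3 distinct deposited lists. The 3T9 cells are embryonic fibroblasts (E13.5) of mixed strain, immortalised by serial passage. They carry floxed c-myc alleles (c-mycflox/flox) and were infected in culture with MycER, a Myc fusion that 4-hydroxytamoxifen (4-OHT) activates. One group received 400 nM 4-OHT for 4 h and the other ethanol (EtOH, 0 h), with 2 libraries each, and both groups share the floxed alleles and MycER. The labels do not say whether the floxed alleles had been removed or whether the line is a clone.

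The deposited lists of 4-OHT replicate 1 and EtOH replicate 2 hold the same 44956 intervals, so 3 distinct lists remain. The 4-OHT list (replicate 2) has 47621 peaks, the both-label list 44956 and the EtOH list (replicate 1) 35149. Each treatment therefore has 1 list of undisputed label and no replicate check, and no test or p-value is given. Treatment and replicate letter (B or none) cannot be told apart between those lists. Each peak has the caller's own score, higher for stronger evidence, which started near 80 and piled up at 3100. Read depth is unknown, and list length and score move with it, so genes were compared within a list. The score grades the evidence for a peak and is not a level of accessibility, and nothing here measures transcription.

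DNase I cuts DNA where nucleosomes are displaced, so called peaks mark promoters, enhancers and other regulatory DNA. Collagen I, built from the Col1a1 and Col1a2 chains, is the main fibre-forming collagen of fibroblasts. Collagen III (Col3a1) and collagen V (Col5a1 and Col5a2 chains) assemble with it, and collagen V is known to set fibril diameter. Fn1 encodes fibronectin, which cells bind through integrins. Sparc encodes a collagen-binding matrix glycoprotein, and Lox encodes lysyl oxidase, the enzyme that starts the cross-linking of collagen and elastin. In fibroblasts all of these genes are known to be strongly transcribed, and TGF-beta raises several of them.

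Promoter sequences were matched by symbol for 4 of the 8 members (Col1a2, Col3a1, Col5a1 and Sparc) in RefSeq on GRCm38.p6. The 2 below are shown because their windows had the most peaks (Col5a1) and the fewest (Col3a1), and capitals mark each CpG, the dinucleotide that is dense in CpG-island promoters. Each is the 250 bases before the annotated start, both on the plus strand, at chr2:27886175-27886424 for Col5a1 and chr1:45311288-45311537 for Col3a1.
Col5a1: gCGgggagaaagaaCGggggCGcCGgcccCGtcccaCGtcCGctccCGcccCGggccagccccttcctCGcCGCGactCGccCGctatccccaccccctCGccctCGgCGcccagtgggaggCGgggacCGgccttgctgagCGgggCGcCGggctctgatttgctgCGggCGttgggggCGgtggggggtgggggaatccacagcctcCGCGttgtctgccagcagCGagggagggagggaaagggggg
Col3a1: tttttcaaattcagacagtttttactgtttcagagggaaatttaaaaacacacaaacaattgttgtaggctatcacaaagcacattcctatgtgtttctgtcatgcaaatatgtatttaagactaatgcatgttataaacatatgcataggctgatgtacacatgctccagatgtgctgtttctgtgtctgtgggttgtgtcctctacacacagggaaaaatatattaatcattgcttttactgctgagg
The Col5a1 promoter was 76.4% G or C with 28 CpGs, and 3.04% of 32851 promoters in the table had as high a share. The Col3a1 promoter was 35.2% G or C with 0 CpGs, and 5.41% of promoters had as low a share. The others lay between, Col1a2 at 62.0% with 11 CpGs and Sparc at 54.0% with 4, beside a median of 52.4% and 6 CpGs over all promoters. The canonical Myc E-box CACGTG was on neither strand of these 4 sequences, and 6.02% of all promoters held it. The general E-box CANNTG, which includes CACGTG, matched at 4 positions for Col3a1 and 2 for Sparc, with 66.2% of promoters holding it. The AP-1 motif TGANTCA was in none of the 4 (6.75% of promoters), CCAAT was in Col1a2 alone (33.8%), and TATAAA was in Col3a1 alone (12.4%). All motifs were searched on both strands. The peaks are on mm9 and these sequences on another build, so no peak was placed at a promoter, exon or intron.

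The matrix windows as a set were rich in peaks beside the genome mean, most of all at Col1a1, Sparc and Col5a1. Only the Col3a1 and Col5a2 window lay under that mean. Together the 7 windows held 70 peaks in the 4-OHT list, 79 in the both-label list and 63 in the EtOH list. That is 5.83, 6.58 and 5.25 peaks per 100 kb in that order, beside 1.81, 1.71 and 1.33 over the 2636 Mb spanned by peaks. Peaks covered 10.9% of the windows in the 4-OHT list, 12.2% in the both-label list and 9.46% in the EtOH list, while over the genome they covered 2.44%, 2.45% and 1.86%. The excess over the genome was thus 4.47-fold, 4.96-fold and 5.09-fold by covered length. The windows are known genes with their flanks and the genome mean includes gene deserts, and no comparison with other genes was made. In GRCm38.p6 the protein-coding neighbours include Sgca beside Col1a1, Rxra beside Col5a1, and Atic and Mreg beside Fn1. They also include Fat2, Atox1 and G3bp1 beside Sparc, and Srfbp1 and Zfp474 beside Lox. A peak in a window may therefore belong to a neighbour.

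**Figure D1:**
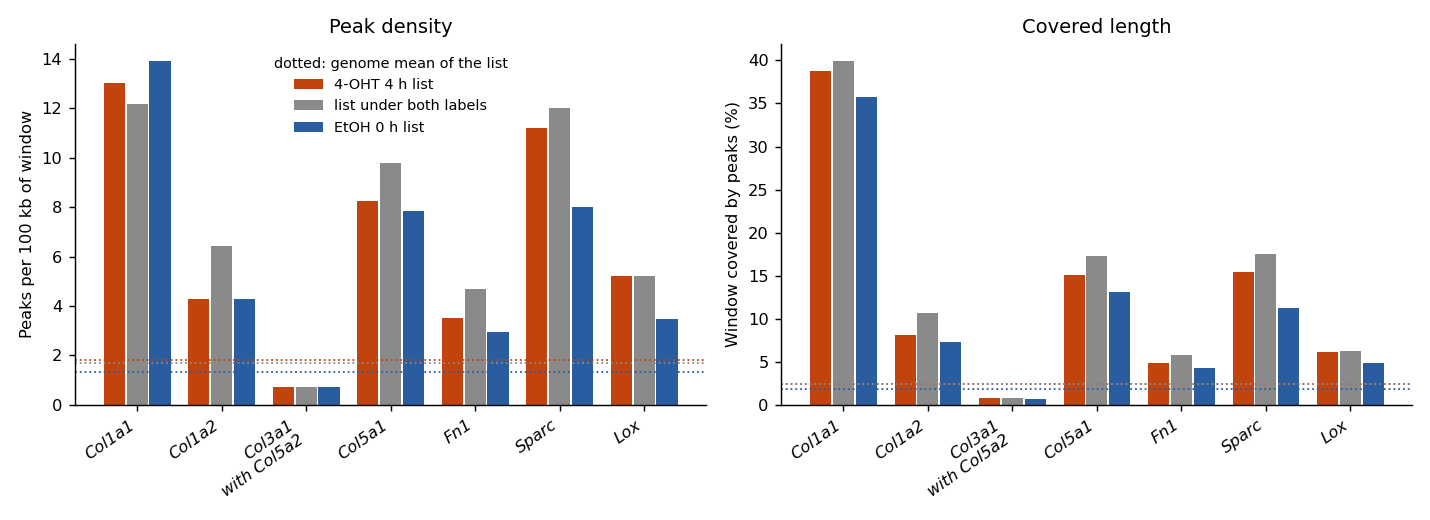
Peaks per 100 kb (left) and percent of window length covered by peaks (right) in each of the 7 windows, with 1 bar for each of the 3 distinct lists and dotted lines at the genome mean of each list. Col1a1 has the largest covered share, 35.8% to 39.9%, and Col3a1 with Col5a2 lies under the dotted lines at 0.714 peaks per 100 kb.

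Col1a1 had the broadest called chromatin of the members and, in the 4-OHT and EtOH lists, the most peaks per 100 kb. Its 115 kb window held 15 peaks in the 4-OHT list, 14 in the both-label list and 16 in the EtOH list, or 13.0, 12.2 and 13.9 per 100 kb. Sparc came next in each list, close behind in the both-label list at 12.0. In that list Sparc was ahead when only peaks wholly inside the windows were kept (12.0 for Sparc, 11.3 for Col1a1). It was also ahead there when the windows were shortened by 10 kb at each end (13.3 and 12.6). With peaks under a score of 100 left out, Col5a1 came next after Col1a1 in that list (9.80 and 12.2). Of the 22907 consecutive genome tiles of 115 kb, 0.799% held as many peaks or more in the 4-OHT list, 1.04% in the both-label list and 0.0786% in the EtOH list. Peaks covered 38.8%, 39.9% and 35.8% of the window in the same order of lists. The both-label list had the fewest peaks there and the largest covered length. At 3 of the 12 Col1a1 sites in all lists, at least 1 list had several peaks, and these were the only such sites among the 53 shared sites of the windows (5.66%, beside 5.94% over the genome). Densities and tile shares here count peaks, so a site called as several peaks counts more than once. Merged over the lists, Col1a1 had 13 sites in 115 kb, 1 of them crossing the edge, and Sparc 16 in 125 kb. Sparc thus had more merged sites per 100 kb. Sites with a peak were 13, 12 and 12 at Col1a1 in the 4-OHT, both-label and EtOH lists. At Sparc they were 14, 15 and 10.

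The centre of the Col1a1 window was mostly called, with breaks between peaks. From 94788504 to 94820435, a stretch of 31932 bp bounded after the sites had been seen, 7 peaks covered 83.7% of the bases in the 4-OHT list. In the both-label list 6 peaks covered 91.2%, and in the EtOH list 8 peaks covered 82.8%. The site at 94788504 to 94792413 scored 3100 in all lists, as did the site at 94793978 to 94801474. This last site held 3 peaks in the 4-OHT list, 2 in the both-label list and 3 in the EtOH list.

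The widest site of all windows followed, at 94802175 to 94818129 (15955 bp), and it was wide without scoring 3100 in any list. Its widest peak was 10047 bp with a score of 783 in the 4-OHT list, 10831 bp with 1733 in the both-label list and 9147 bp with 1453 in the EtOH list. With this peak included, 9 peaks of the whole 4-OHT list were as wide or wider, as were 13 of the both-label list and 7 of the EtOH list. Peaks of 4 kb or more mostly score at the ceiling, 75.8% of 550 in the 4-OHT list, 81.0% of 648 in the both-label list and 68.3% of 331 in the EtOH list. Among them, 2.55%, 8.64% and 8.76% scored as low as the wide Col1a1 peak, in the same order of lists. This peak was thus among the widest of each list and among the lower-scoring of its wide peaks. A second broad site lay at 94849741 to 94856013, a single peak in each list of 6273 bp in the 4-OHT list, 6246 bp in the both-label list and 5316 bp in the EtOH list, scoring 3100, 3100 and 2698.

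Of 13 Col1a1 sites, merged from peaks that overlap by at least 1 bp, 12 had a peak in every list. The exception was a weak site at 94828894 to 94829976, found in the 4-OHT list alone with a score of 102. At 94864908 to 94866288 a site crosses the window edge only through its both-label peak. Its 4-OHT and EtOH peaks start 0.228 and 0.218 kb beyond the edge and are not counted among the window's peaks.

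**Figure D2:**
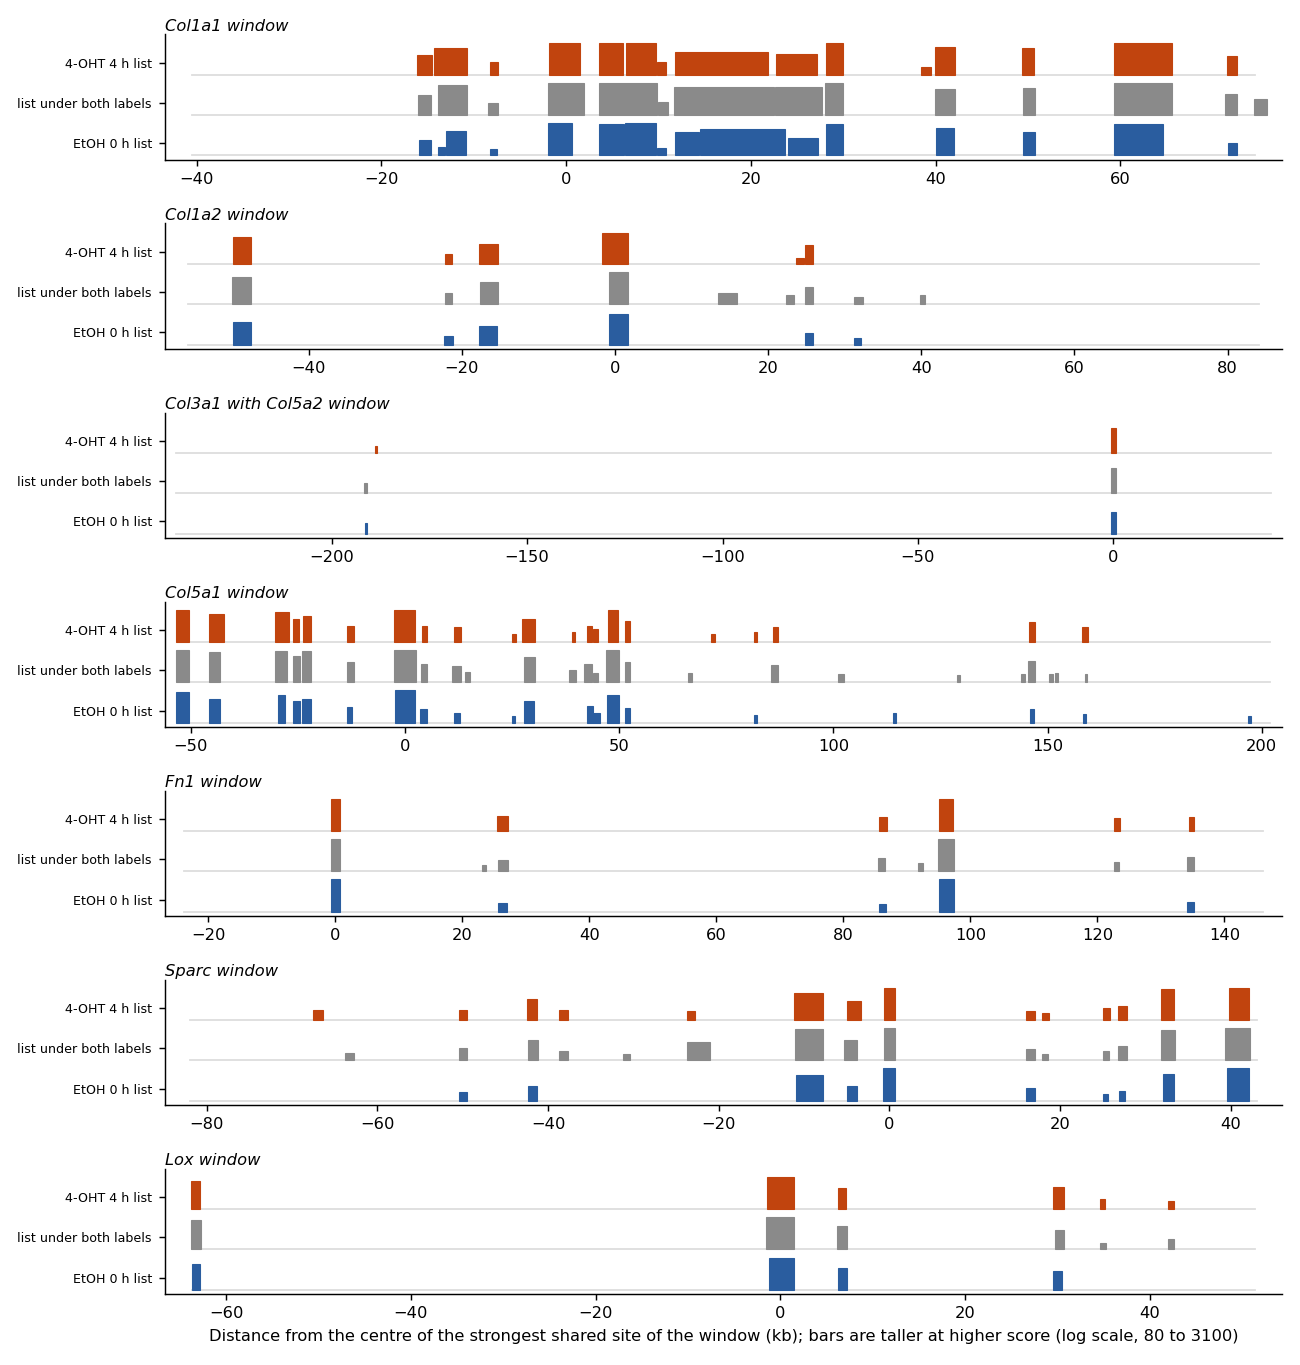
Called peaks in each window, with a row for each of the 3 distinct lists, plotted as distance in kb from the centre of the window's strongest shared site. Bars have the width of the peak and are taller at a higher score. The Col1a1 rows are mostly filled over 31932 bp, with breaks (82.8% to 91.2% of bases by list), while the Col3a1 with Col5a2 rows are empty for 187.6 kb.

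Col1a2, which encodes the partner chain of collagen I, had fewer peaks than Col1a1 in every list, with 10 merged sites beside 13. Its 140 kb window held 6 peaks in the 4-OHT list, 9 in the both-label list and 6 in the EtOH list, covering 8.07%, 10.6% and 7.35% of it. The strongest site, at 4454149 to 4457514, scored 2377 in the 4-OHT list, 3100 in the both-label list and 2447 in the EtOH list. It was 1 of 5 sites in every list. The next in score lay at 4405789 to 4408345 (1509 in the 4-OHT list, 1435 in the both-label list, 789 in the EtOH list) and at 4438048 to 4440556 (512, 749 and 488). No list had a peak after 4496285, so the last 43.7 kb of the window were empty. The other 5 Col1a2 sites scored between 81.3 and 159, and 3 of them were in the both-label list alone.

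Col3a1 and Col5a2 had the sparsest window. It was the longest, at 280 kb, yet it held 2 peaks in each list, or 0.714 per 100 kb, under the genome mean of each list. The only site in all lists was at 45559009 to 45560478. It scored 1133 in the 4-OHT list, 1196 in the both-label list and 668 in the EtOH list, with peaks of 1424, 1406 and 1454 bp. At the other end of the window each list had 1 weak peak, not at the same place. The 4-OHT list had it at 45370759 to 45371438 with a score of 91.9. The both-label and EtOH lists had it at 45368106 to 45368854, with scores of 135 and 152, and 1904 bp separate these sites. Between 45371439 and 45559008, 187.6 kb held no peak of any list. Of 52160 such peak-free stretches in the genome 3.52% were as long, and these long stretches took up 50.8% of the spanned length. By density the window had 0.395 of the genome mean in the 4-OHT list, 0.419 in the both-label list and 0.536 in the EtOH list. The median tile of 280 kb also held 2 peaks in each list. The other 6 windows were above the genome mean in every list, by unequal margins. For Sparc, 1.61% of tiles of its length held as many peaks or more in the 4-OHT list, 1.06% in the both-label list and 2.31% in the EtOH list. In the same order, these shares were larger for Col1a2 (16.7%, 7.61% and 10.7%), Lox (12.9%, 11.9% and 16.2%) and Fn1 (21.2%, 13.1% and 18.9%).

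Col5a1, which encodes another collagen V chain, had the most peaks. Per 100 kb, with all peaks kept, it came after Col1a1 and Sparc in every list. Its densities were 8.24 in the 4-OHT list, 9.80 in the both-label list and 7.84 in the EtOH list. Its 255 kb window held 21 peaks in the 4-OHT list, 25 in the both-label list and 20 in the EtOH list, covering 15.1%, 17.3% and 13.1% of it. As many peaks or more were in 3.37%, 1.47% and 1.46% of the 10326 tiles of that length. The strong sites lay in its first part. The widest, at 27740528 to 27745777, scored 3100 in all lists, with peaks of 4795 bp in the 4-OHT list, 5250 bp in the both-label list and 4779 bp in the EtOH list. The site at 27789956 to 27793010 scored 3100 in the 4-OHT list, 3025 in the both-label list and 1632 in the EtOH list. The site at 27689575 to 27692776 crosses the window edge and scored 3100, 3100 and 2335 in that order of lists. Beyond 27795747 no site scored over 689 in any list. Among the 30 Col5a1 sites 16 were in all lists, and 7 were in the both-label list alone.

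Fn1 had few peaks, with a pair at the ceiling. The 170 kb window held 6 peaks in the 4-OHT list, 8 in the both-label list and 5 in the EtOH list, covering 4.88%, 5.79% and 4.24% of it. The sites at 71603131 to 71604600 and at 71698794 to 71701264 scored 3100 in every list, with their centres 96.2 kb apart. All other Fn1 sites scored between 86.9 and 287. The first of the pair was 1470 bp wide in the 4-OHT list, 1425 bp in the both-label list and 1389 bp in the EtOH list. A score of 3100 was thus reached by this peak of the Fn1 window and not by the widest peak of the Col1a1 window. Whether it belongs to Fn1 or to a neighbour such as Atic was not tested.

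Sparc had a high peak density. The 125 kb window held 14 peaks in the 4-OHT list, 15 in the both-label list and 10 in the EtOH list. None reached 4 kb, as also in the Col1a2, Col3a1 with Col5a2, Fn1 and Lox windows. Such peaks are rare, at 1.15%, 1.44% and 0.942% of the whole lists in that order. Peaks covered 15.4%, 17.5% and 11.3% of it. The sites at 55241239 to 55242626 and at 55281326 to 55284236 scored 3100 in all lists, with their centres 40.8 kb apart. The site at 55273741 to 55275415 scored 2598 in the 4-OHT list, 2532 in the both-label list and 1505 in the EtOH list. The site at 55230771 to 55234206 was the widest there, with peaks of 3406 bp, 3301 bp and 3117 bp and scores of 1499, 2751 and 1252 in that order.

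Lox, whose product acts on the collagens, had 6 peaks in the 4-OHT list, 6 in the both-label list and 4 in the EtOH list over 115 kb. They covered 6.17%, 6.29% and 4.83% of it. The strongest site, at 52687152 to 52690164, scored 3100 in the 4-OHT list, 3100 in the both-label list and 2746 in the EtOH list. All 4 sites of the EtOH list were in the other lists, and they scored at least 482 in each list. The other 2 sites, at 52723199 to 52723909 and 52730623 to 52731273, were weak and not in the EtOH list, with scores of 131 and 102 in the 4-OHT list and 86.8 and 151 in the both-label list.

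**Figure D3:**
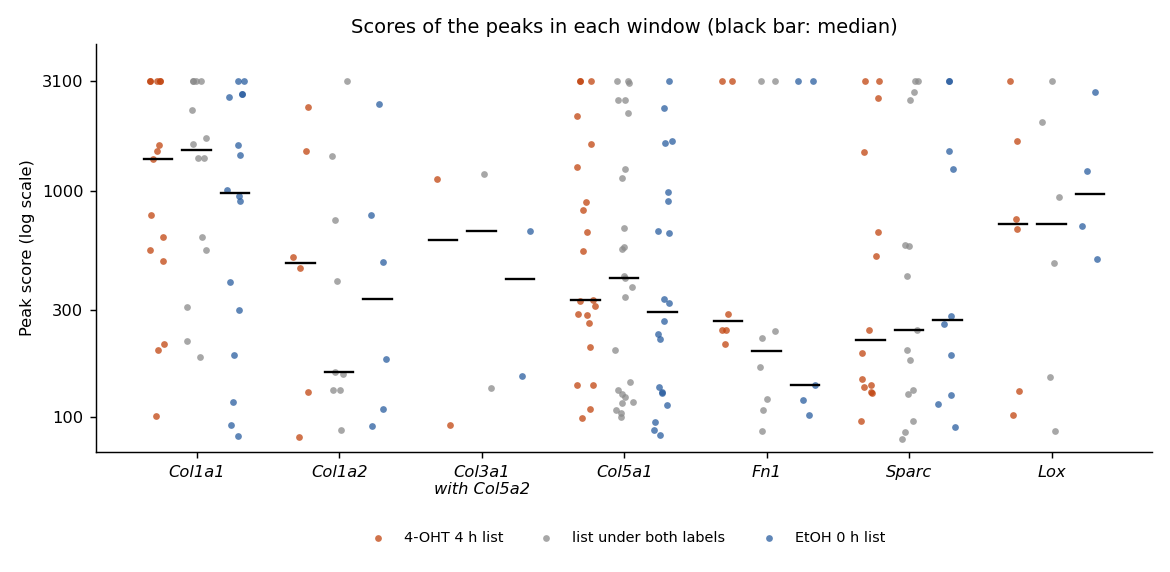
Score of each peak by window (log axis), with 1 point per peak, a colour for each of the 3 distinct lists and a black bar at the median. Points pile up at 3100 in the Col1a1, Col5a1, Fn1 and Sparc windows, and the Col1a1 medians, 985 to 1519, are the highest in every list.

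By score, Col1a1 led and the others overlapped widely. Its median peak score was 1392 in the 4-OHT list, 1519 in the both-label list and 985 in the EtOH list. The Lox medians were 717, 715 and 971, the Col5a1 medians 331, 414 and 294, and the Sparc medians 219, 242 and 270 in the same order of lists. Lox was close to Col1a1 in the EtOH list, where it rests on 4 peaks. Of these, 1 scored 1236 and belongs to a site at 52624884 to 52625949 that crosses the window edge in every list. Over all windows 13 peaks scored 3100 in the 4-OHT list, or 18.6%, while 10.4% of the whole list did. In the both-label list these were 12 peaks or 15.2% (14.7% of the list), and in the EtOH list 7 peaks or 11.1% (7.85%). A score of at least 1000 was reached by 25 peaks in the 4-OHT list (35.7%, whole list 27.5%), 28 in the both-label list (35.4%, whole list 31.5%) and 21 in the EtOH list (33.3%, whole list 27.2%). At 7 of the 86 sites every list scored 3100, 8.14% of them, beside 5.23% of all sites. These 7 were 2 each in the Col1a1, Fn1 and Sparc windows and 1 in the Col5a1 window, and some may belong to neighbours. Col1a2, Lox, and Col3a1 with Col5a2 had none.

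By width, Col1a1 also stood apart. Its median peak width was 2146 bp in the 4-OHT list, 2058 bp in the both-label list and 2074 bp in the EtOH list. Medians over the 7 windows together were 1289, 1381 and 1386 bp, and those of the whole lists 1136, 1215 and 1222 bp. Col1a2 had the next widest median in the 4-OHT list (1724 bp) and the EtOH list (1773 bp), and Col5a1 in the both-label list (1543 bp). The Lox medians were 915, 1029 and 994 bp. Of the windows' peaks, 4 in the 4-OHT list were 4 kb or wider, as were 5 in the both-label list and 3 in the EtOH list, which is 5.71%, 6.33% and 4.76%. In the whole lists these shares were 1.15%, 1.44% and 0.942%. All of these broad peaks lay at Col1a1 except 1 per list at Col5a1.

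Most of the sites had a peak in all 3 lists, which does not measure an effect of treatment. The 3 lists merged into 86 sites in the windows, and 53 of them (61.6%, Wilson 95% interval 51.1% to 71.2%) had a peak in every list. Over all 52181 sites of the genome the share was 61.1%, close to that of the matrix windows. The share was 12 of 13 at Col1a1, 16 of 30 at Col5a1, 10 of 16 at Sparc, 5 of 10 at Col1a2, 5 of 8 at Fn1, 4 of 6 at Lox and 1 of 3 at Col3a1 with Col5a2. Sites in every list scored a median of 783 in the 4-OHT list, 1144 in the both-label list and 667 in the EtOH list. Sites missing from at least 1 list had medians of 129, 122 and 93.3, and none scored over 263, 422 and 152 in the same order. Over the genome such sites had nearly the same medians, 120 in the 4-OHT list, 120 in the both-label list and 97.6 in the EtOH list, with highest scores of 2057, 870 and 862.

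**Figure D4:**
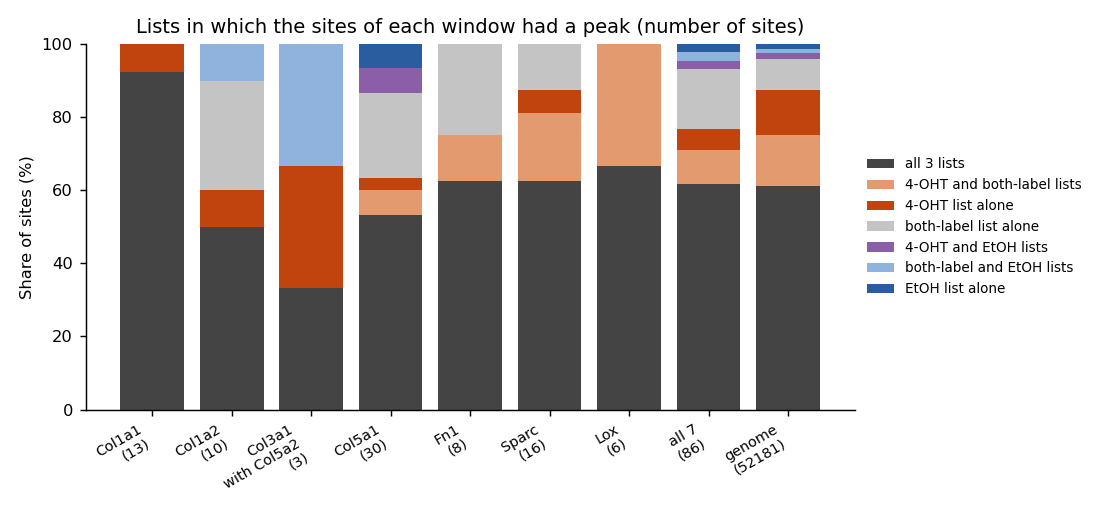
Share of the sites of each window, of all 7 windows and of the genome that had a peak in all or only some of the 3 distinct lists, with the number of sites in brackets. The share in all lists is 92.3% at Col1a1, 61.6% over the 7 windows and 61.1% over the genome.

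Where the 4-OHT and EtOH lists differed, the sites were weak. In the windows 13 of 68 sites of the 4-OHT list lacked an EtOH peak, or 19.1% (11.5% to 30.0%), beside 29.6% over the genome. In the other direction 4 of 59 sites of the EtOH list lacked a 4-OHT peak, or 6.78% (2.67% to 16.2%), beside 3.87% over the genome. Intervals cover counting error over sites only. The sites without an EtOH peak were 4 at Sparc, 3 at Col5a1, 2 at Lox and 1 each at Col1a1, Col1a2, Fn1, and Col3a1 with Col5a2. With 4-OHT scores under 200, 11 of 17 sites lacked an EtOH peak (64.7%, genome 71.1%), and from 200 to 500 it was 2 of 16 (12.5%, genome 16.4%). At 500 and above it was 0 of 35 (genome 0.241%). The upper limit of 8.57% on that share is 3 sites of 35. It takes the sites as independent and covers this pair of lists only. When each list was held to its 35149 best peaks, 3 sites of the 4-OHT list lacked an EtOH peak and 9 the reverse, so the larger side depends on list length. The count of 13 also depends on the library. It was 22 without 4-OHT replicate 2 and 7 without EtOH replicate 1, with the both-label list standing in, and the count of 4 was 16 without EtOH replicate 1.

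The strongest site of the 4-OHT list without an EtOH peak was at Col5a1, at 27828582 to 27830170, with scores of 263 in the 4-OHT list and 376 in the both-label list. It was followed by Fn1 at 71726539 to 71727374 (212 and 120), Sparc at 55203210 to 55204292 (148 and 133) and Col5a1 at 27781494 to 27782994 (139 and 198). The fifth, at Sparc from 55174348 to 55175514, scored 137 and had no both-label peak. The 4 sites of the EtOH list without a 4-OHT peak were the weak Col3a1 site described above, Col5a1 at 27856974 to 27857873 (129), Col1a2 at 4486979 to 4488165 (91.1) and Col5a1 at 27940011 to 27940709 (87.6). The both-label list also held the Col3a1 and Col1a2 sites of these 4. It lacked 4 of the 59 sites of the EtOH list, all at Col5a1 (6.78%, genome 4.39%), and the EtOH list lacked 22 of its 77 sites (28.6%, genome 26.6%). The both-label list lacked 7 of the 68 sites of the 4-OHT list (10.3%, genome 15.5%), and the 4-OHT list lacked 16 of the 77 both-label sites (20.8%, genome 11.4%).

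The both-label list can be read under either label, so the classes over all 3 lists are also given. Both the 4-OHT and both-label lists, and not the EtOH list, held 8 of the 86 sites (9.30%, genome 14.1%). The 4-OHT list alone held 5 (5.81%, genome 12.3%) and the both-label list alone 14 (16.3%, genome 8.53%). The EtOH list alone held 2 sites, both at Col5a1 (2.33%, genome 1.34%). Sites of the both-label list alone were 7 at Col5a1, 3 at Col1a2 and 2 each at Fn1 and Sparc, with none at Col1a1, Lox, or Col3a1 with Col5a2.

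Positions and the order of scores were much alike across lists. Shared over combined bases (the Jaccard index) came to 0.764 between the 4-OHT and EtOH lists in the windows (0.676 over the genome), 0.739 between the 4-OHT and both-label lists (0.738) and 0.716 between the both-label and EtOH lists (0.684). At Col1a1 these indices were 0.872, 0.897 and 0.886 in the same order of pairs. Between the 4-OHT and both-label lists the index was 0.472 at Col3a1 with Col5a2, 0.542 at Col1a2 and 0.905 at Lox. These 0.472 and 0.905 were the lowest and highest of any window and pair. Over the 53 sites in all lists, Spearman's rho between site scores was 0.957 for the 4-OHT and EtOH lists, 0.967 for the 4-OHT and both-label lists and 0.961 for the both-label and EtOH lists. Over the 31871 such sites of the genome it was 0.936, 0.945 and 0.935, close to these values. The same sites and the ceiling at 3100 are common to these values, and neighbouring sites are not independent. At 50 sites every list had exactly 1 peak. There the 4-OHT peak was wider than the EtOH peak at 33 (66.0%, genome 68.1%), the both-label peak wider than the EtOH peak at 41 (82.0%, genome 74.5%), and the 4-OHT peak wider than the both-label peak at 21 (42.0%, genome 41.8%).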

How the data were processed

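Small fragments released by DNase I were sequenced, per the labels' protocols. Per the submitters' processing notes, the tools were BWA 0.6.2, SAMtools and MACS 1.4.1 on mm9, and their settings and the use of the input are not stated there. The deposited files are 4 peak lists, and the score of each peak is the authors' own value. On the scale MACS uses, the score is minus 10 times the log10 of a p-value, a meaning taken from the caller's name, as no file header states it. The list deposited under both treatments was used once. Depth per library is unknown.

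Peaks overlapping a window were counted, and peaks of the 3 distinct lists were merged into sites where they overlap by at least 1 bp. The number of merged sites was checked against bedtools 2.31.1, and the merge was run on simulated lists. The simulated sites lay far apart with at most 1 peak per list, so split or adjacent peaks were not tried there. Genome densities use the span up to the last peak of each of the autosomes and X. Starts are counted from 1. Python 3.11.15, pandas 2.3.3, scipy 1.17.1 and matplotlib 3.10.9 were used. The members and lists were chosen with earlier results of these data known. All 8 genes were named, with, per window, the highest-scoring and widest sites, the 5 strongest one-sided sites per direction, and the sites over 4 kb. Other sites were named after their values were seen. Counts at other matrix genes and at cell type markers were planned and not run, since no annotation of mm9 was used here, so the cell type was not checked against further markers. Alternatives were a score of at least 100, equal list length, peaks wholly inside a window, windows shortened by 10 kb at each end, sharing of at least 50% of the shorter peak, joining of peaks within 500 bp, and leaving out each library.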

Additional observations from a re-analysis of the deposited data

How the results depend on the processing

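Of 66 recomputed summary values, 54 stayed within 1.5 times the main count or within the 95% binomial interval of the main median. Some of the 54 could not move. Equal list length is the length of the EtOH list, so that list kept its summary values and its counts for single windows. The count of 53 sites in all lists was also fixed without 4-OHT replicate 1 and without EtOH replicate 2. Those that moved were as follows. With equal list length, the sites of the 4-OHT list lacking an EtOH peak were 3 in place of 13 and the reverse 9 in place of 4, and the both-label list had a median score of 849 in place of 422 and a median width of 1628 bp in place of 1381 bp. That setting keeps 4-OHT peaks scoring at least 148 and both-label peaks scoring at least 138, so their weakest peaks are left out by construction. When peaks under a score of 100 were left out, 2 sites of the EtOH list lacked a 4-OHT peak. Each library was also left out in turn, with 2 kinds of count. Without 4-OHT replicate 2 or EtOH replicate 1, the both-label list stood in for the missing list. That gave 22 and 7 sites on the 4-OHT side and 4 and 16 on the EtOH side. Without 4-OHT replicate 1 the both-label list joined the EtOH list, and without EtOH replicate 2 it joined the 4-OHT list. A site then had to be in, or lacking from, both lists of that treatment. That gave 5 and 8 sites on the 4-OHT side and 2 and 2 on the EtOH side. By construction these counts could not exceed 13 and 4. Peaks in all windows at equal length were 55 in the 4-OHT list, 58 in the both-label list and 63 in the EtOH list, so that the EtOH list, lowest in full, was highest. Of 84 counts for single windows, 5 moved by more than 1.5 times, among them Sparc in the 4-OHT list (9 in place of 14 at equal length). Col3a1 with Col5a2 was the sparsest window in every list and setting run. No paired analysis was possible because no test was run and 1 list sits under both treatments. Depth is unknown, so a missing peak does not show that a site was closed.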
